A study of Mus musculus with 24 samples.

Results

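The alpha and beta tubulins are the proteins that pair into the building block of microtubules, the hollow filaments that carry cargo, form the mitotic spindle and make up the axoneme of motile cilia. Mammals hold several genes for each partner of the pair, and cell types use them in different mixtures. The ependymal cells that line the central canal of the spinal cord bear motile cilia, whereas dividing cells rebuild their microtubules into a spindle, so both kinds of cell draw on this family. In all, 10 genes were followed here by their symbol, namely 3 alpha tubulins (Tuba1a, Tuba1b, Tuba1c) and 7 beta tubulins (Tubb2a, Tubb2b, Tubb3, Tubb4a, Tubb4b, Tubb5, Tubb6). They stood among 23339 genes named in the deposited values. A gene was read from its own probe set with the highest mean log2 signal, and probe sets that name a second gene were left out. All 10 were found in the neurosphere values, and 9 in the ependymal values, where Tubb2b was not analysed.

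The study profiled 24 arrays of mouse RNA. In the first experiment, the region around the central canal was cut out with a laser from adult CD1 mice aged 3 months, 6 after a sham operation and 6 killed 3 days after needle insertions into the spinal cord (injured). The sham operation opened the spine without inserting a needle, and the needles were placed so as not to hit the ependymal region. In the second, neurospheres grown from the adult spinal cord of 4 mice, which are floating balls of stem and progenitor cells, were profiled in 3 conditions. They were growing with EGF, FGF2 and heparin (with_EF), had been kept for 3 days on poly-D-lysine and laminin with no growth factor and 2% fetal bovine serum (without_EF), or had passed through this step and then received EGF, FGF2 and heparin for 3 days with the serum removed (returned_EF). By the study's methods, cells for this step were dissociated with enzymes and the medium also lacked heparin. Withdrawal of the factors therefore came together with dissociation, loss of heparin, a coated surface and serum, and these cannot be told apart. Likewise, return of the factors came together with heparin and removal of the serum, and their effects cannot be told apart. Returned cultures had been through the whole withdrawal step and growing cultures had not, so its parts cannot be told apart in that comparison either. The labels give passage 1 for the cultures and 3 days without the factors, while the study's methods give passage 3 and, in one place, 4 days.

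The 2 experiments were run on different array types and normalised apart, so no value of one was set against the other. The ependymal arrays fell into 3 sets by their signal distribution (lower quartiles of 4.38 to 4.41, 4.11 to 4.18 and 3.96 to 4.02 log2), each holding 2 sham and 2 injured arrays, and the sources used here do not say what separates them. Markers of ependymal cells had a mean of 10.54 to 10.88 in the sham arrays and 9.59 to 10.09 in the injured arrays, against array medians of 4.85 to 5.36. Sham arrays 3, 4 and 6 and injured array 6 had the highest signal of 13 skeletal muscle genes. Their means were 8.30, 7.86, 9.28 and 8.15 log2 against 4.84 to 6.39 in the other arrays. Sham arrays 3 and 4 were the sham arrays of the second set, so leaving out the 4 arrays left injured arrays only in it. In the growing neurospheres 6 progenitor markers had a mean of 9.04 to 9.11, and the 12 neuron markers had a mean of 4.26 to 4.42, near the array medians of 3.93 to 3.97. Because whole regions and cultures were measured, fewer cells of a type and less RNA per cell cannot be told apart.

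Promoter windows were read for 8 of the 10 genes from RefSeq (build GRCm38.p6, 250 bases before to 50 bases after the start of the gene, on the strand of the gene). The windows of 3 genes are shown because these genes are the ones with a window that passed the test in both withdrawal and return of the growth factors below. Capitals mark matches on either strand to 6 short motifs, namely the CCAAT box (CCAAT), the TATA box (TATAAA), the GC box (GGGCGG), the E-box (CACGTG), the cyclic AMP response element (TGACGTCA) and the cell cycle homology region (TTTGAA). The windows lie at chr15:99029641-99029940 on the plus strand for Tuba1c, chr13:34077959-34078258 on the minus strand for Tubb2a and chr17:35838252-35838551 on the minus strand for Tubb5.
Tuba1c: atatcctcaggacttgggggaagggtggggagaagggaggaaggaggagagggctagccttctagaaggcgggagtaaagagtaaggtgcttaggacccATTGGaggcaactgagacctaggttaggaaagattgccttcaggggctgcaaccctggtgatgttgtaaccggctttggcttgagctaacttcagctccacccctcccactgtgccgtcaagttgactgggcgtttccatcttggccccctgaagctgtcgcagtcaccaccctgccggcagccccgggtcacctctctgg
Tubb2a: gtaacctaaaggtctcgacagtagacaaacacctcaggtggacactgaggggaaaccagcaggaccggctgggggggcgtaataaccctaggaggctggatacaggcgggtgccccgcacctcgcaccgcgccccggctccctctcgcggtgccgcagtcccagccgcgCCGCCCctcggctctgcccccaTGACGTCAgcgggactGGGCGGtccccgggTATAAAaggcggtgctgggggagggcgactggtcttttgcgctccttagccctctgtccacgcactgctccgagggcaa
Tubb5: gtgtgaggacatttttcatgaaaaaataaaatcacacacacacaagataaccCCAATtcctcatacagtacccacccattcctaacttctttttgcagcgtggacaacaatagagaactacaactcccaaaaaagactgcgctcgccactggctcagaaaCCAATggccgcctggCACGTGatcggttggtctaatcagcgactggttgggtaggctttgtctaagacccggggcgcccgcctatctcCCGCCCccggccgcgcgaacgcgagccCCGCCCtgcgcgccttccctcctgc

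Tuba1c held 1 CCAAT box and none of the other motifs in this window. Tubb2a held 1 TATA box, 1 cyclic AMP response element and 2 GC boxes. Tubb5 held 2 CCAAT boxes, 2 GC boxes and 1 E-box. Of 32851 windows of this length in the same set, 37.4% held a CCAAT box, 35.7% a GC box, 13.6% a TATA box, 7.15% an E-box, 1.79% a cyclic AMP response element and 17.9% a cell cycle homology region. These matches only describe the letters, and no binding was measured.

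The first comparison asked which tubulin RNAs differed between the injured and the sham ependymal region. In the fit without a block, Tubb6 rose 6.05-fold and Tubb5 1.58-fold, and none of the other 7 measured tubulins passed an adjusted p under 0.05. So 2 of 9 tubulins were called higher and none lower, where 2.91% of the 17097 genes were called higher, 1.87% lower and 4.78% in either direction. By the study's own thresholds, an unadjusted p up to 0.05 with at least a 2-fold change, 2 of 9 passed (Tuba1c and Tubb6) against 3.98% of genes. Blocking on the array set or on the replicate number gave 5 of 9, with Tuba1c and Tubb2a also higher and Tubb4b lower, and raised the share over all genes to 25.1% and 21.1%. In all, 3 of 9 tubulins, Tubb4b, Tubb5 and Tubb6, had groups that did not overlap, against 4.43% of all genes.

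Tubb6 encodes a beta tubulin that is scarce in the brain and more widespread elsewhere. Its log2 signal ran from 5.16 to 5.56 in the 6 sham arrays with a median of 5.29. These values lay near the sham array medians of 4.87 to 5.35, so the fold may be understated. In the 6 injured arrays the Tubb6 signal ran from 7.50 to 8.94 with a median of 7.78. Each injured array stood above every sham array, and injured array 6 was the highest. The log2 difference was 2.60 (SE 0.21, 95% interval 2.14 to 3.05, adjusted p = 2.8e-05). Within the 3 sets of arrays it was 2.72, 2.17 and 2.90 (adjusted p = 0.0043, 0.0036 and 0.098, 2 arrays per group). Without the 4 arrays rich in muscle signal it was 2.50 (adjusted p = 2.0e-04). Some markers of other cells also rose in this comparison. They were 5 of 11 microglia and macrophage genes, such as Aif1 (0.84, adjusted p = 8.8e-04) and Cd68 (1.67, adjusted p = 0.030), with list means of 5.97 to 6.74 in sham and 6.60 to 7.44 in injured arrays, and 3 of 8 astrocyte genes, led by Gfap (2.76, adjusted p = 8.9e-04), with list means of 7.51 to 8.34 and 8.19 to 9.08. No gene of either list was called lower, and the median differences of the lists were 0.63 and 0.22. P2ry12 of the microglia and macrophage list differed by -1.12 (adjusted p = 0.056) and Gjb6 of the astrocyte list by -0.90 (adjusted p = 0.44). The part of these cells in the Tubb6 signal was not tested. A second Tubb6 probe set had means below the array medians in both groups and gave a difference of 0.01 (SE 0.16).

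Tubb5, a beta tubulin expressed in most cell types, had log2 signals of 9.73 to 10.42 in the sham arrays (median 10.21). The injured arrays spanned 10.64 to 11.05 (median 10.82). The groups did not overlap, and the narrowest gap lay between sham array 1 and injured array 4. The log2 difference was 0.66 (SE 0.13, adjusted p = 0.015). It was 0.60, 0.39 and 0.99 within the 3 sets (adjusted p = 0.030, 0.18 and 0.12). Leaving out the 4 arrays rich in muscle signal ended the call (0.65, adjusted p = 0.12), and blocking on the array set in that fit as well, an alternative chosen after seeing the data, brought it back (0.72, adjusted p = 0.0046). A second, dimmer Tubb5 probe set differed by 1.20 (SE 0.36, adjusted p = 0.12), with overlapping groups.

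**Figure D1:**
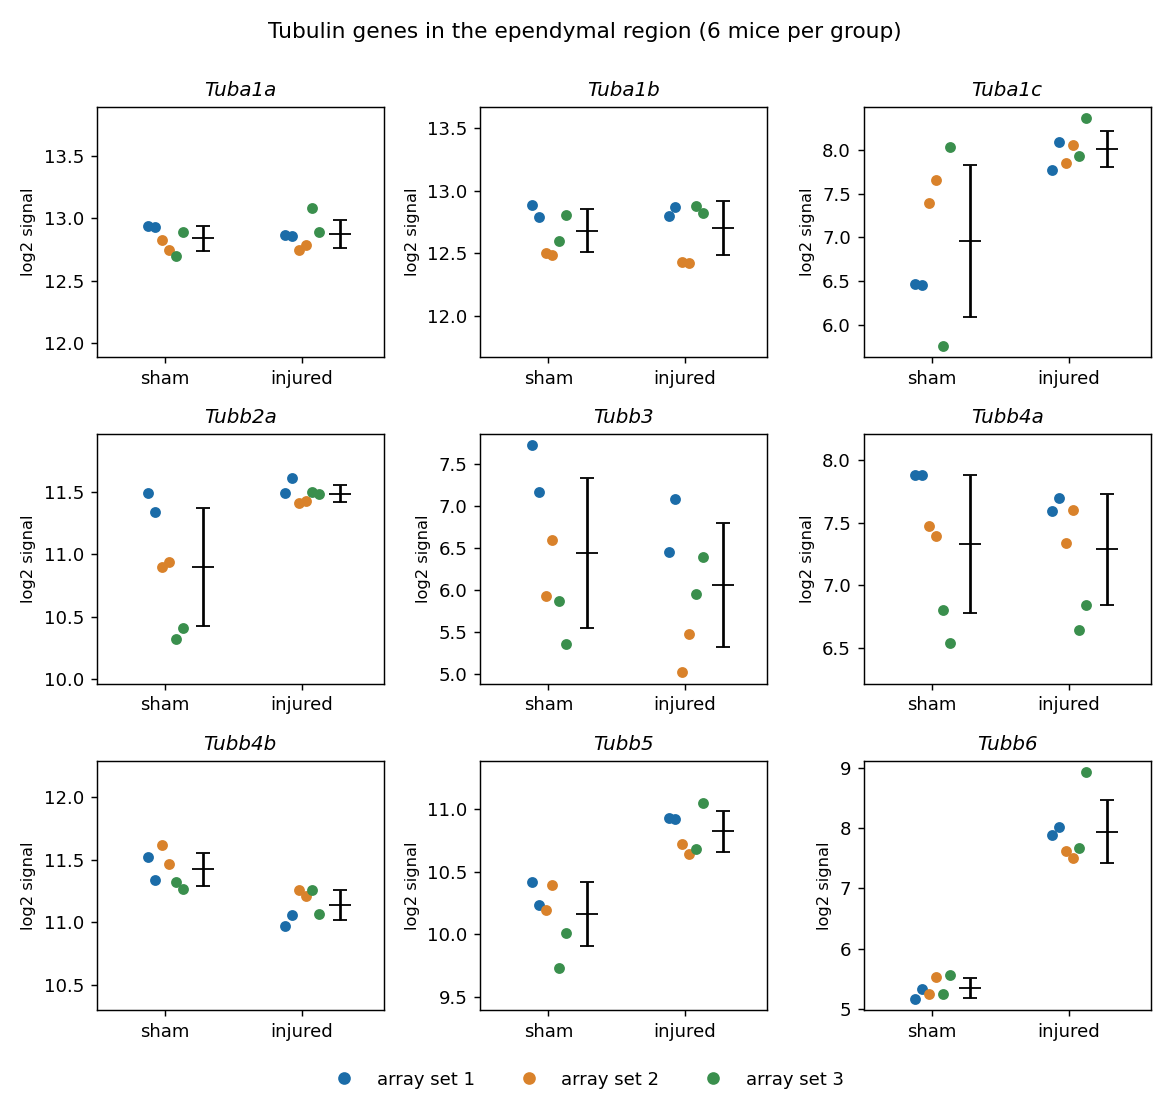
Log2 signal of 9 tubulin genes in each array of the ependymal region (points, coloured by the 3 sets of arrays), with the mean and SD of 6 arrays per group beside them; each panel has its own axis. Tubb6 lies at 5.16 to 5.56 in sham and 7.50 to 8.94 in injured arrays, while Tuba1c in sham spreads from 5.76 to 8.03.

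Tuba1c, a broadly expressed alpha tubulin, had the widest sham spread of the 3 alpha tubulins. Its sham values were 6.46, 6.45, 7.39, 7.66, 5.76 and 8.03 log2, and its injured values were 7.77, 8.09, 7.85, 8.05, 7.93 and 8.36. Sham array 6 lay among the injured arrays and the other sham arrays lay below all of them. The difference of 1.05 (2.07-fold, SE 0.33) did not pass (adjusted p = 0.14). Blocking on the array set gave an adjusted p of 0.046, and blocking on the replicate number one of 0.030. Within the sets the difference was 1.47, 0.43 and 1.25 (adjusted p = 0.011, 0.20 and 0.55). The probe set read here carries a suffix for probes shared between transcripts. The second Tuba1c probe set, which has no such suffix, gave 0.89 (SE 0.25, adjusted p = 0.090).

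Marker lists were set beside Tuba1c in the same arrays. Sham arrays 3, 4 and 6, the highest in Tuba1c, had mitosis list means of 6.20, 6.75 and 6.84 log2 over 17 genes, against 4.87 to 5.31 in the other sham arrays and 6.28 to 7.16 in the injured arrays. Their means of 8 neutrophil genes were 11.27, 11.46 and 10.71, against 5.07 to 7.47 in the other sham arrays. In injured arrays 1 to 6 the neutrophil means were 6.86, 5.23, 10.38, 11.09, 5.04 and 7.62. Tuba1c in the same arrays was 7.77, 8.09, 7.85, 8.05, 7.93 and 8.36. Sham arrays 3, 4 and 6 were, with injured array 6, also those rich in muscle signal. Without the 4 arrays of highest muscle signal, and so without the sham arrays highest in Tuba1c, the Tuba1c difference was 1.72 (SE 0.19, adjusted p = 0.0032). The part of these cells in the Tuba1c signal was not tested.

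**Figure D2:**
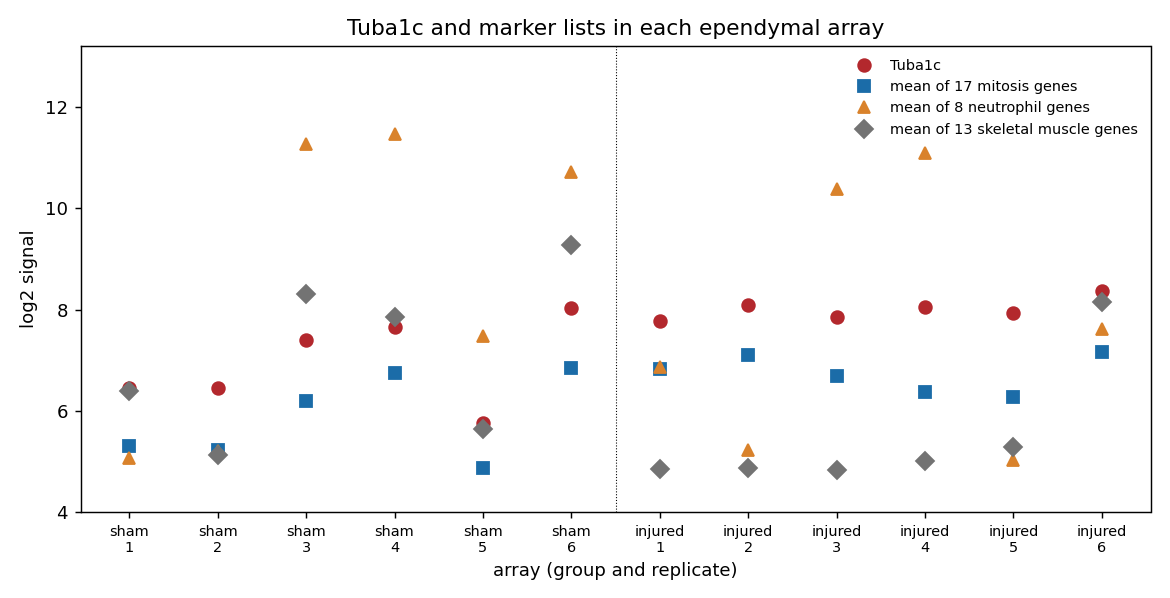
Log2 signal of Tuba1c in the 12 ependymal arrays beside the mean log2 signal of 17 mitosis, 8 neutrophil and 13 skeletal muscle genes in the same array (horizontal axis, group and replicate). In sham arrays 3, 4 and 6, Tuba1c (7.39, 7.66 and 8.03) and all 3 lists stand above the other sham arrays; in the injured arrays Tuba1c stays between 7.77 and 8.36.

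Tubb2a, a beta tubulin abundant in neural tissue, did not pass in the fit without a block, and its difference varied between the sets of arrays. Whether it depended on the set was not tested. Sham values were 11.49, 11.34, 10.90, 10.94, 10.32 and 10.41 log2, whereas the injured arrays kept to 11.41 to 11.61. Sham array 1 alone reached the injured range. The difference was 0.59 (1.5-fold, SE 0.19, adjusted p = 0.15), and 0.13, 0.51 and 1.12 within the sets (adjusted p = 0.47, 0.071 and 0.062). Blocking on the array set gave an adjusted p of 0.010, blocking on the replicate number 0.041, and centring each array on its median 0.045. The probe set carries a suffix for probes shared between transcripts, and a second one without it, with means below the array medians, gave 0.26 (SE 0.15, adjusted p = 0.67).

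Tubb4b, a beta tubulin found in the axonemes of motile cilia, lay slightly lower after injury. It ran from 11.27 to 11.62 log2 in sham arrays (median 11.41) and from 10.97 to 11.26 in injured arrays (median 11.14). The groups did not overlap. The difference of -0.28 (SE 0.10, 95% interval -0.50 to -0.07) did not pass in the fit without a block (adjusted p = 0.19). It passed when the array set or the replicate number was blocked (adjusted p = 0.012 and 0.034) and after quantile normalization (-0.35, adjusted p = 0.041). Within the sets it was -0.41, -0.31 and -0.13. In all, 7 of 10 ependymal markers fell in the same comparison, with a median difference of -0.92 over the list. Their part in the Tubb4b signal was not tested.

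The remaining tubulins did not pass with or without a block. Tubb3, the beta tubulin used as a marker of neurons, ran from 5.36 to 7.73 in sham and 5.02 to 7.09 in injured arrays, a difference of -0.38 (SE 0.43, 95% interval -1.30 to 0.54). Its sign was not shared by the sets (-0.68, -1.01 and 0.56). The 12 neuron markers had means of 8.25 to 9.94 in sham and 6.92 to 9.19 in injured arrays, and their part in the Tubb3 signal was not tested. Tubb4a, a brain beta tubulin prominent in oligodendrocytes, differed by -0.04 (95% interval -0.62 to 0.54). Tuba1a and Tuba1b, alpha tubulins that are abundant in neural cells, differed by 0.03 (95% interval -0.16 to 0.23) and 0.02 (95% interval -0.25 to 0.29). Their probe sets lay on average 0.26 and 0.42 log2 below the brightest signal of an array and carry the suffix for shared probes, so a rise near this ceiling could go unseen.

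The genes that fold, modify or bind tubulin were read against the 4.78% of all genes called in this comparison. None of 6 other tubulins, 24 folding factors and 11 tubulin-modifying enzymes passed (limma, with Benjamini-Hochberg adjustment), and 0, 5 and 2 of them had an unadjusted p under 0.05. The smallest p in these lists belonged to Tubg1, the gamma tubulin of the microtubule organising centre (0.23, adjusted p = 0.81), the folding cofactor Tbcb (0.37, adjusted p = 0.16) and Svbp, the partner of the enzymes that remove the last tyrosine of alpha tubulin (0.68, adjusted p = 0.085). Of 28 microtubule-binding genes, 2 rose and 1 fell (2.91% and 1.87% of all genes). The doublecortin-like kinase Dclk1 rose by 2.23 log2 (SE 0.31, adjusted p = 0.0014) and Map7d1 by 0.58 (adjusted p = 0.017), while Clip1, which binds growing microtubule ends, fell by 0.95 (adjusted p = 0.010). The genes most like Tubb6 over the 12 arrays were Tspan4, Ctsa, Selenoh, Cav1 and Olfml3, with Pearson r of 0.983, 0.979, 0.975, 0.973 and 0.971. This is a description over arrays that share the group difference and the sets.

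The second experiment asked how the same genes behaved when growth factors were withdrawn from neurospheres. In the fit without a block, Tuba1c, Tubb2a, Tubb5 and Tubb6 fell, by 1.42-fold to 2.35-fold, and no tubulin was called higher. These were 4 of 10 tubulins called lower, where 16.2% of 22180 genes were called lower, 12.1% higher and 28.3% in either direction. On return of the factors, these 4 tubulins rose, where 10.1% of genes were called higher, 6.56% lower and 16.7% in either direction. The groups did not overlap for 3 of 10 tubulins on withdrawal (30.1% of genes) and 4 of 10 on return (20.3% of genes). By the study's own thresholds Tuba1c and Tubb6 passed in each, 2 of 10 tubulins against 8.62% of genes on withdrawal and 3.97% on return. With the culture as a block, 6 of 10 tubulins were called in each comparison, against 32.7% of genes on withdrawal and 21.3% on return. The block added Tubb2b, in the same direction as these 4, and Tubb3, in the opposite one. Both comparisons use the without_EF arrays, so a high or low value there enters each with the opposite sign.

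Tuba1c was 5.41, 5.38, 5.16 and 5.12 log2 in the growing cultures 1 to 4. It was 3.86, 4.28, 3.70 and 4.29 after withdrawal and 5.42, 5.38, 5.20 and 5.10 after return. The without_EF values lay below all others, near the array medians of 4.00 to 4.08, so the fold may be understated. Withdrawal lowered it by 1.24 log2 (2.35-fold, SE 0.14, adjusted p = 3.9e-05) and return raised it by 1.24 (adjusted p = 9.9e-05). Returned and growing cultures differed by 0.01 (95% interval -0.30 to 0.32). The second, dim Tuba1c probe set had 3.26 to 4.24 log2 in the 12 arrays and passed in none of the 3 comparisons.

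Tubb5 was 10.68, 10.93, 10.64 and 10.85 log2 with the factors. Values without them were 9.59 in cultures 1 and 3 and reached at most 10.02 in cultures 2 and 4, and after their return they were 10.50, 10.71, 10.21 and 10.58. All without_EF values lay below the others. The fall was 0.98 (1.97-fold, SE 0.14, adjusted p = 1.9e-04) and the later rise 0.70 (1.62-fold, adjusted p = 0.0043). Returned minus growing cultures gave -0.28 (SE 0.14, adjusted p = 0.30), which passed once the culture was a block (adjusted p = 0.047). The second Tubb5 probe set did not follow, with differences of -0.20 on withdrawal and -0.16 on return (SE 0.33 for both). Averaging both probe sets ended the call on return (0.27, adjusted p = 0.45).

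Tubb6 was 7.79, 8.03, 8.16 and 8.13 log2 in growing cultures. It was 6.65, 6.91, 6.79 and 7.61 after withdrawal, where culture 4 was the highest, and 9.07, 9.19, 8.84 and 8.94 after return. The 3 conditions did not overlap. It fell by 1.04 (2.06-fold, SE 0.18, adjusted p = 9.7e-04) and then rose by 2.02 (4.06-fold, adjusted p = 1.4e-05). Returned cultures stood 0.98 above the growing ones (1.97-fold, 95% interval 0.59 to 1.37, adjusted p = 0.0036). It was the only one of 10 tubulins called in that comparison, where 7.86% of genes were called higher, 7.43% lower and 15.3% in either direction. None of the 10 passed the study's own thresholds there (3.55% of genes did), since its difference lay just under 2-fold. Groups did not overlap for Tubb6 and Tubb4b, 2 of 10 tubulins against 22.3% of genes. The call held with the culture as a block (adjusted p = 0.0037), a fit that called 2 of 10 tubulins, Tubb5 being the other, against 19.4% of genes.

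Tubb2a was 8.48, 8.96, 8.80 and 9.04 log2 in growing cultures. It was 8.10, 8.45, 8.13 and 8.60 after withdrawal and 8.61, 8.73, 8.93 and 9.06 after return. In every culture the value without the factors was the lowest of the 3, but growing culture 1 lay below culture 4 after withdrawal. The differences were -0.50 (SE 0.15, adjusted p = 0.034) and 0.51 (adjusted p = 0.046). Both calls were lost under quantile normalization (adjusted p = 0.10 and 0.13) and kept with the culture as a block (adjusted p = 0.0027 and 0.0043). Returned and growing cultures differed by 0.01 (95% interval -0.32 to 0.34).

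**Figure D3:**
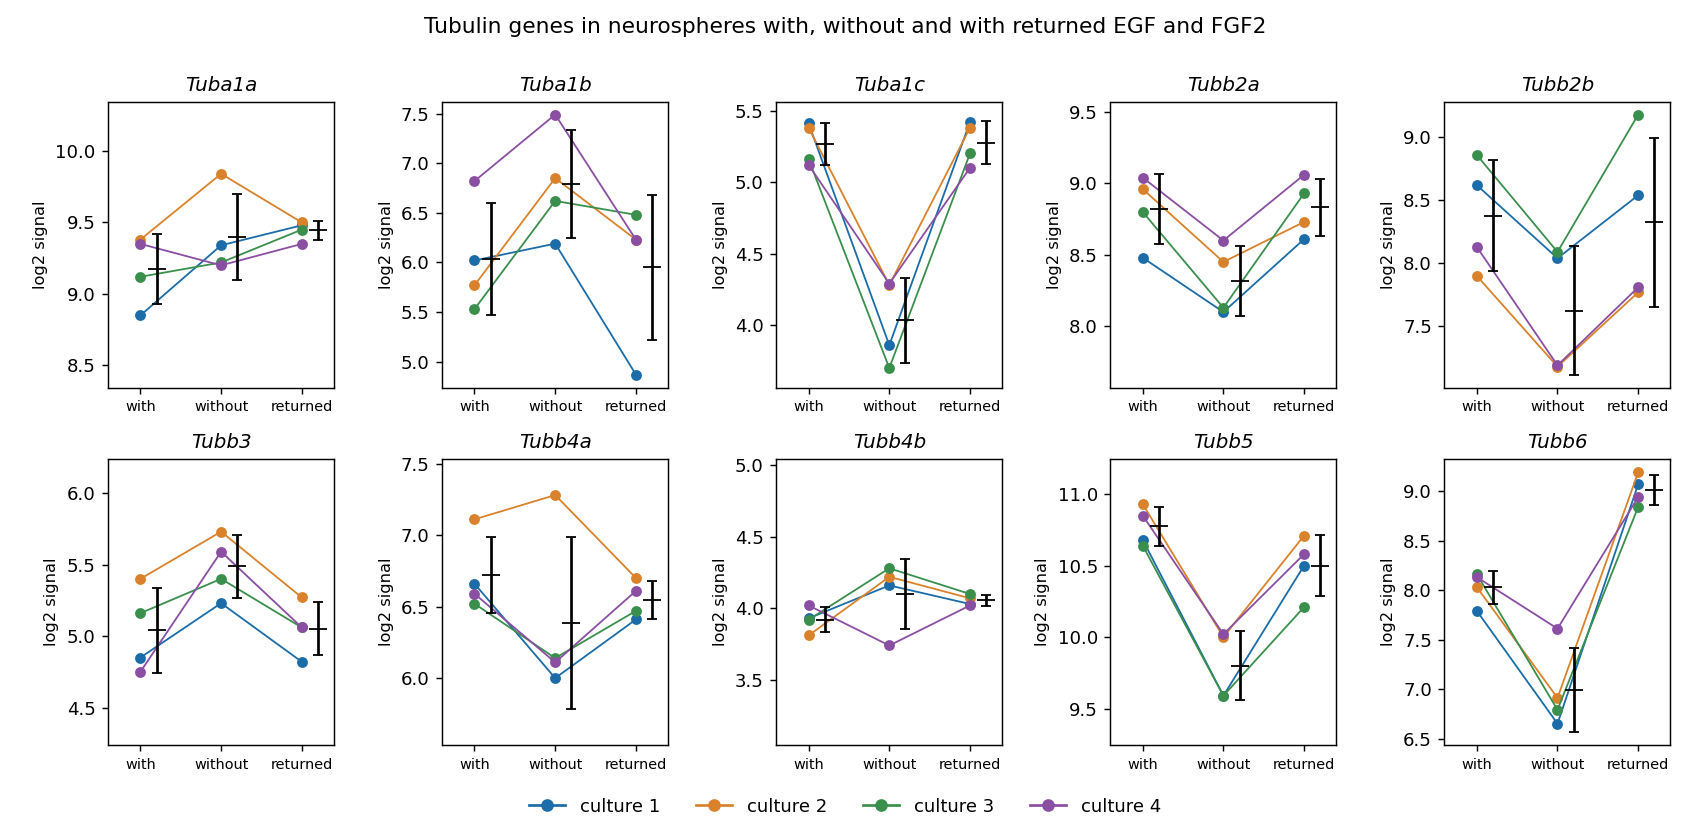
Log2 signal of 10 tubulin genes in neurospheres with growth factors, without them and after their return; each line joins the arrays of one culture, the bars show the mean and SD of 4 cultures, and each panel has its own axis. Tuba1c, Tubb2a, Tubb5 and Tubb6 dip without the factors, Tubb6 ends at 8.84 to 9.19, above its growing values, and Tubb2b keeps cultures 1 and 3 above cultures 2 and 4 in every condition.

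Tubb2b, the close relative of Tubb2a that is typical of developing neural tissue, differed more between cultures than between conditions. Cultures 1 to 4 had 8.62, 7.90, 8.86 and 8.13 log2 with the factors, 8.04, 7.18, 8.09 and 7.19 without them, and 8.54, 7.77, 9.18 and 7.81 after their return. Cultures 1 and 3 stood above cultures 2 and 4 in each condition, and each culture dipped without the factors. In the fit without a block neither difference passed (-0.75, SE 0.34, adjusted p = 0.16, and 0.70, adjusted p = 0.24). With the culture as a block, both did (SE 0.11, adjusted p = 6.7e-04 and 0.0020). A second Tubb2b probe set gave -0.07 and -0.43 (SE 0.30), neither of which passed. It did not share this order of cultures, since culture 4 was its highest with the factors (6.48) and without them (6.68). Its cultures 2 and 4 did not dip without the factors.

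Tubb3 had values of 4.85, 5.40, 5.16 and 4.75 log2 in growing cultures, 5.23, 5.73, 5.40 and 5.59 without the factors and 4.82, 5.27, 5.06 and 5.06 after their return. It was highest without the factors in each culture, opposite in sign to the tubulins above. The differences of 0.45 (SE 0.16, adjusted p = 0.062) and -0.44 (adjusted p = 0.096) passed only with the culture as a block (adjusted p = 0.0076 and 0.014) or, for withdrawal, also without probe sets under the median signal (0.039), with the mean of all probe sets of each gene (0.034) and without growing culture 2 or without_EF culture 1 (0.018 and 0.038). Of 12 neuron markers, 1 rose (Rbfox3) and 1 fell (Gap43) on withdrawal.

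The remaining neurosphere tubulins passed in none of the 3 comparisons. Tuba1a differed by 0.23 on withdrawal (SE 0.15, adjusted p = 0.36), although a dimmer Tuba1a probe set rose by 1.01 (SE 0.25, adjusted p = 0.010). Tuba1b ranged from 4.87 to 7.49 over the 12 arrays, with differences of 0.75 and -0.83 (SE 0.38, adjusted p = 0.22 and 0.21). Another probe set names both Tuba1b and Gm5620 and was not used. Tubb4a differed by -0.34 on withdrawal (SE 0.24, adjusted p = 0.42), and without without_EF culture 2, which stood at 7.28 against 6.00 to 6.14, by -0.64 (adjusted p = 0.0055). Tubb4b lay at 3.74 to 4.28 log2, around the array medians, and differed by 0.18 (SE 0.11, adjusted p = 0.30).

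**Figure D4:**
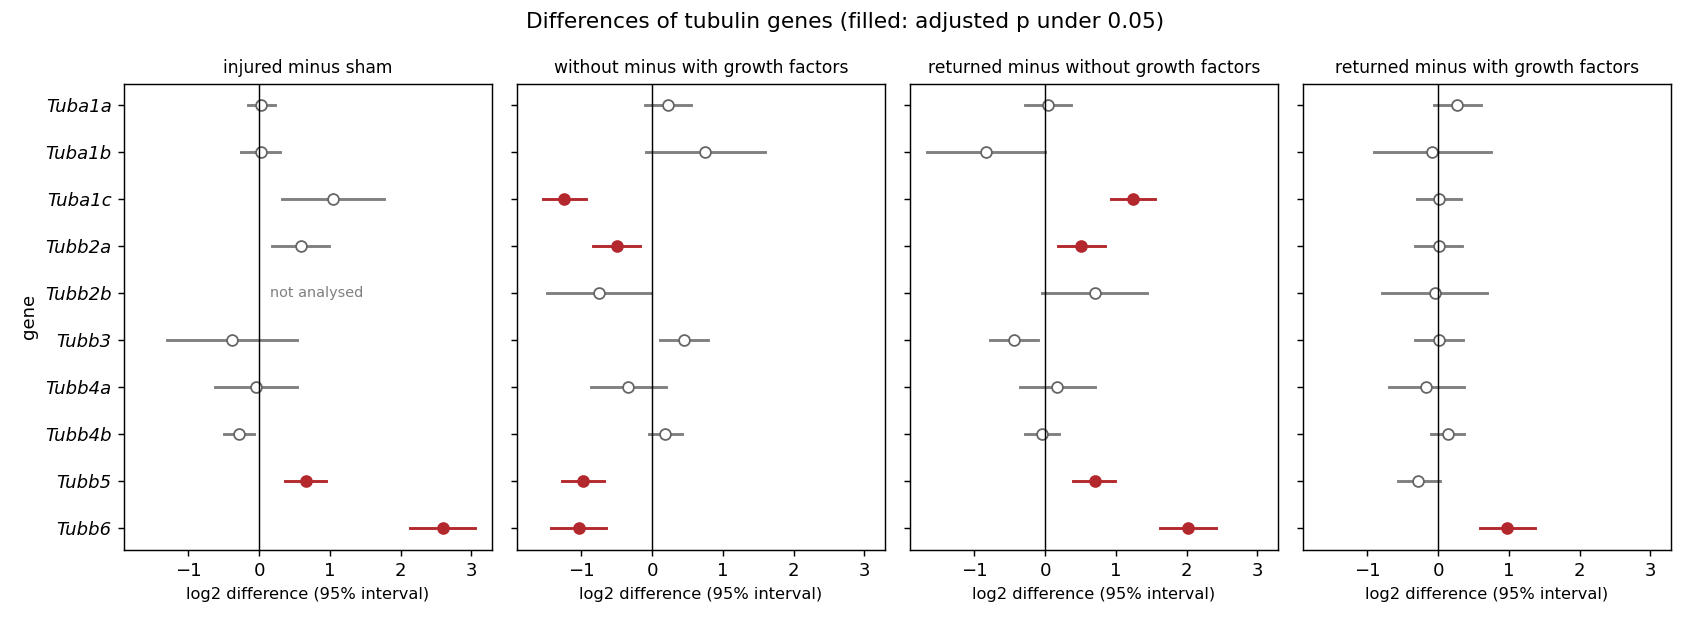
Log2 difference of each tubulin in the 4 comparisons (points) with its 95% interval (lines); filled red points passed an adjusted p under 0.05 and open points did not, in the fits without a block. Tubb6 is filled in all 4 panels, at 2.60, -1.04, 2.02 and 0.98, while Tuba1c, Tubb2a and Tubb5 are filled on both sides of 0 for withdrawal and return.

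The neurosphere differences stood beside a large change in mitosis genes. All 17 measured mitosis genes fell on withdrawal, where their mean was 8.31 to 8.47 log2 in the growing arrays and 4.38 to 4.85 without the factors. All 17 rose on return, to means of 7.10 to 7.77. In returned against growing cultures, 14 of the 17 were lower. Of the tubulins called on withdrawal, Tubb6 was higher there and Tuba1c and Tubb2a differed by 0.01. Tubb5 differed by -0.28, which did not pass without a block. Astrocyte markers had means of 6.22 to 6.32 with the factors, 7.30 to 7.59 without them and 6.65 to 6.95 after their return. On withdrawal the rise in this mean came mainly from 2 of the 8 genes, Aqp4 (4.50) and Gfap (4.06). The other 6 differed by -0.35 to 0.42, with Aldoc called higher (0.42, adjusted p = 0.033) and Slc1a3 called lower. The median of the list was 0.24. The part of dividing cells or astrocytes in the tubulin signals was not tested. Elk3, Pde2a, Cttnbp2nl, Golm1 and Irf2bpl had the patterns most like Tubb6 over the 12 arrays, with Pearson r of 0.978, 0.974, 0.969, 0.963 and 0.960, a description over arrays that share the same conditions.

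The genes that build and use microtubules moved in both directions on withdrawal, where 12.1% of all genes were called higher and 16.2% lower. Of 7 other tubulins, 4 fell, among them Tubg1 by 1.30 log2 (adjusted p = 3.6e-04), Tube1 by 0.75 (adjusted p = 3.1e-04) and Tubd1 by 0.32 (adjusted p = 0.0039), the last 2 encoding the epsilon and delta tubulins of centrioles. Tubg2, also called lower, had means of 3.78 with the factors and 3.21 without them, below the array medians. Of 22 folding factors, 12 fell and 1 rose. Tbca, a cofactor that binds beta tubulin, fell by 1.31 (adjusted p = 5.1e-06) and Cct5, a subunit of the chaperonin that folds tubulin, by 0.81 (adjusted p = 2.1e-05), while Tbcel, which is known to destabilise tubulin, rose by 1.41 (adjusted p = 9.3e-07). The list's median difference was -0.47, against 0.00 over all genes. Of 14 tubulin-modifying enzymes, 5 rose and 1 fell. Ttl, the ligase that restores the last tyrosine of alpha tubulin, was higher by 0.90 (adjusted p = 0.0012). The carboxypeptidases Agbl3 and Agbl4 were higher by 1.15 (adjusted p = 0.0015) and 0.43 (adjusted p = 9.2e-04). Agbl4 was dim, with means of 3.36 with the factors, 3.80 without them and 3.46 after their return, all below the array medians.

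Of 29 microtubule-binding genes, 8 rose and 7 fell on withdrawal. Kif2c, a kinesin that takes microtubules apart during mitosis, fell by 3.70 log2 (adjusted p = 7.2e-08), and Tppp3 and Clip1 rose by 2.62 (adjusted p = 4.7e-06) and 1.65 (adjusted p = 6.2e-06). On return, where 10.1% of all genes were called higher and 6.56% lower, Kif2c rose by 2.55 (adjusted p = 4.7e-06), and Tppp3 and Tppp, which bundle microtubules, fell by 2.25 (adjusted p = 4.9e-05) and 1.35 (adjusted p = 1.8e-04). With these, 5 genes of the list rose and 4 fell. In all, 11 of 22 folding factors rose, led by Tbca at 1.11 (adjusted p = 5.9e-05), and 1 fell, Tbcel by 0.82 (adjusted p = 2.1e-04). Tubg1 was the only one of 7 other tubulins to rise (0.91, adjusted p = 0.0084), and 5 of 14 modifying enzymes fell, among them Agbl4 by 0.33 (adjusted p = 0.010) and the alpha tubulin acetyltransferase Atat1 by 0.44 (adjusted p = 0.011).

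Returned cultures differed from growing ones in 3 of these 4 lists, where 7.86% of all genes were called higher and 7.43% lower. Tubd1 and Tube1 were lower, with differences of -0.49 (adjusted p = 5.1e-04) and -0.57 (adjusted p = 0.0050). In all, 3 folding factors were higher, Tbcel by 0.59 (adjusted p = 0.0029), Arl2 by 0.46 (adjusted p = 0.012) and Pfdn1 by 0.46 (adjusted p = 0.014), and 3 were lower. None of 14 modifying enzymes passed in limma's test, and 2 had an unadjusted p under 0.05, namely Ttl (0.42, adjusted p = 0.15) and Vash2 (-0.42, adjusted p = 0.16). Of 29 microtubule-binding genes, 7 were higher and 5 lower, among them the end-binding gene Mapre3 at 0.87 (adjusted p = 4.6e-04), Clip1 at 1.10 (adjusted p = 5.7e-04) and the severing enzyme Spast at -0.90 (adjusted p = 6.5e-04).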

How the data were processed

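RNA from 12 ependymal regions and 12 neurosphere cultures was hybridised to 2 Affymetrix mouse array types. The deposited values are log2 signals that the authors obtained by RMA (Affymetrix Expression Console 1.2.1, per the submitters' processing notes), which corrects background, equalises the arrays and summarises the probes of each set. The number of arrays limits the precision. After 104 and 190 control probe sets were removed, 45037 and 41155 remained, of which 28898 and 23521 named 1 gene in the platform annotation, 551 and 1820 several and 15588 and 15814 none.

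Each table was fitted with limma 3.58.1 (R 4.3.3; lmFit and eBayes, two-sided), the 3 neurosphere conditions in 1 fit, with Benjamini-Hochberg adjustment over all those probe sets and a threshold of 0.05. The study's own thresholds (at least a 2-fold change with an unadjusted p up to 0.05) were an alternative. Folds are powers of the log2 difference and RMA compresses those of dim or very bright probe sets. Each mouse or culture is 1 replicate. Neurosphere titles give the mouse, and arrays of the same mouse deviated together (correlations of 0.160 to 0.391), so the culture, or replicate number, was also fitted as a block. Ependymal arrays of the same number came from different mice and also deviated together (0.425 to 0.786). After the mean of each array set was subtracted, the correlations were -0.575 to 0.105. That subtraction by itself makes such correlations negative, so they cannot show whether the number carries more than the set. Arrays of the same number always lay in the same set, so this block also takes in the set.

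The tubulins and gene lists were chosen with earlier results of these data known. All 10 tubulins are named, with up to 3 genes per other list and comparison, those of smallest p among the called, or 1 where none was called. The 5 genes most correlated with the tubulin of largest difference are named too. Other named genes, Vash2, Tubg2, Rbfox3, Gap43, Aif1, Cd68, Gfap, Aqp4, Slc1a3, P2ry12, Gjb6 and Aldoc, were chosen after their values were seen.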

Additional observations from a re-analysis of the deposited data

Results flagged for a closer look

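Of 48 groups of 4 or 6 arrays examined, 3 held an array far from the others, and chance alone gives about 1 in 20. Tubb6 was 8.94 log2 in injured replicate 6, against 7.50 to 8.03 in the other injured arrays, and this array also had the highest muscle signal of its group (8.15). Tuba1b was 4.87 in returned_EF replicate 1, against 6.23 to 6.48 in the other cultures. Tubb4a was 7.28 in without_EF replicate 2, against 6.00 to 6.14 in the others.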

How the results depend on the processing

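No called difference changed sign under the alternatives run. For injury, the 2 tubulins called became 5 with the replicate block and 5 with the array set blocked (Tuba1c, Tubb2a, Tubb5 and Tubb6 higher, Tubb4b lower), 3 within the first set, 1 within the second and 0 within the third, where limma had 2 arrays per group and 3 tubulins had an unadjusted p under 0.05. Leaving out each array gave 2 to 3 called, with Tuba1c added without sham replicate 6 (1.26, adjusted p = 0.045). With the study's own thresholds 2 were called after injury (Tuba1c and Tubb6), and 2, 2 and 0 in withdrawal, return and returned against growing cultures. With the replicate block, the neurosphere comparisons called 6, 6 and 2 in place of 4, 4 and 1. Leaving out each array gave 3 to 5, 3 to 4 and 1 to 1 called. Tubb2a lost its call in withdrawal without growing culture 2, 3 or 4 or without_EF culture 1 or 3 (adjusted p = 0.066 to 0.098), and in return without without_EF culture 1, 2 or 3 or returned culture 2, 3 or 4 (0.059 to 0.12). Without without_EF culture 4, Tubb4b was called higher on withdrawal (0.30, adjusted p = 0.012), and without culture 2 Tubb4a was called higher on return (0.47, adjusted p = 0.049). The causes of these shifts were not tested.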
